A study of Mus musculus with 8 samples.

Results

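Gene-body trimethylation of histone H3 lysine 36 (H3K36me3) was set against promoter trimethylation of lysine 27 (H3K27me3) in Setd2 knockout (KO) mouse pancreatic tumour cells. The genes were those whose span from start to end, as the deposited table gives it, was at least 20 kb. They numbered 9310 of the table's 25450 rows. Another 8875 rows had a shorter span, and 7265 rows had no coordinates. The rule used gene span alone and neither mark. The question was whether the 2 marks still avoid each other when Setd2 is knocked out. That wording presumes an exclusion in wild type (WT), and these values showed none there, nor in KO.

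The study profiled pancreatic ductal adenocarcinoma (PDAC) cells of C57BL/6 background by CUT&Tag, in which an antibody-tethered transposase cuts and tags the DNA around a histone mark. The 8 groups held 1 library each. They were gene-body H3K36me3 in KO and in WT, promoter H3K27me3 in KO and in WT, promoter H3K27ac in KO and in WT, and a second promoter H3K27ac pair in KO and WT whose titles carry the word vitro. The sample labels describe cultured tumour cells, whereas the title of the series names sorting out of orthotopic tumours, and the design text speaks of established murine lines with and without Setd2. The number of clones behind each line, the ages of any host animals and the way Setd2 was disrupted are not stated in the labels. The data hold no transcript or protein measurement, so the loss of Setd2 was not checked. With 1 library per group no test between genotypes was possible, no value has a replicate error, and differences are given as sizes. Values are mean coverage on the authors' scale, multiplied to signal per kilobase, and the sequencing depth behind them is unknown.

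SETD2 is the methyltransferase that places H3K36me3 on nucleosomes behind elongating RNA polymerase II, so the mark usually lies over the bodies of transcribed genes. H3K27me3 is placed by EZH2 in Polycomb repressive complex 2 and covers CpG-rich promoters of silent developmental regulators. In biochemical work, H3K36 methylation on the same histone tail hinders Polycomb repressive complex 2, and the marks are described as largely excluding each other along chromatin. H3K27ac sits on the same residue as H3K27me3 and marks active promoters.

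The promoters below belong to genes among the 10 highest for each mark or for both in KO, and are shown as examples of sequence. Each is the RefSeq window on GRCm38.p6 from 250 bases before to 50 bases after a gene start, read on the gene's strand, with CG dinucleotides in capitals. Tnxb and Ccdc136 were among the 10 highest in both marks, Lhx6 among the 10 highest in H3K27me3, Kcnj4 among both of these sets, and Chl1 and Mroh2a among the 10 highest in H3K36me3.
Tnxb: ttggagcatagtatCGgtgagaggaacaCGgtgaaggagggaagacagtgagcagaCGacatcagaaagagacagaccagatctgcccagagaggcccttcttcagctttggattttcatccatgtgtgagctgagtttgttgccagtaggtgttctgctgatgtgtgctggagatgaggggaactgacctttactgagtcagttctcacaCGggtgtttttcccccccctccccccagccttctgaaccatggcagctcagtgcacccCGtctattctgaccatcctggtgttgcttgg
Ccdc136: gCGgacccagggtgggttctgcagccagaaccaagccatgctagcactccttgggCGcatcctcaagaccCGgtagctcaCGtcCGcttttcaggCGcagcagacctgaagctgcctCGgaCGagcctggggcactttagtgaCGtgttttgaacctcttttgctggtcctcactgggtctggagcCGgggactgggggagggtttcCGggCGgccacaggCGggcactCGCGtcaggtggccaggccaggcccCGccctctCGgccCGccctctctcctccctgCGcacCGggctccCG
Kcnj4: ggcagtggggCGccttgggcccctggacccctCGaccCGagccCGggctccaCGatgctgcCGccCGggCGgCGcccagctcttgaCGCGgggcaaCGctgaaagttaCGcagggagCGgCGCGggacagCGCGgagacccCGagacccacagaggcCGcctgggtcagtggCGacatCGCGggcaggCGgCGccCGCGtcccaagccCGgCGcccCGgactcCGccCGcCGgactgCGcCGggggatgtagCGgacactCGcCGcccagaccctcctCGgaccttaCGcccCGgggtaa
Lhx6: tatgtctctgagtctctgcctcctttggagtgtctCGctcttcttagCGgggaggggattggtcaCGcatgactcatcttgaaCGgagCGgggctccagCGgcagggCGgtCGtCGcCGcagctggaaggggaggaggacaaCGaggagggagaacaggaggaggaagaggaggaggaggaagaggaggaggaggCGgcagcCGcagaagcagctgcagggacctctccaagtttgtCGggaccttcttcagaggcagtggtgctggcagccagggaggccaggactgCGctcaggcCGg
Chl1: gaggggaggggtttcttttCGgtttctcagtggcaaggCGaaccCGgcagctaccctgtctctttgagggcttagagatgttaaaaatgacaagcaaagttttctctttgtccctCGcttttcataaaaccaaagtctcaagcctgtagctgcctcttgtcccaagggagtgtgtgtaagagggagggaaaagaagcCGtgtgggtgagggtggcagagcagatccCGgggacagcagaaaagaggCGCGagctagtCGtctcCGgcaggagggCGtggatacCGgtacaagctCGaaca
Mroh2a: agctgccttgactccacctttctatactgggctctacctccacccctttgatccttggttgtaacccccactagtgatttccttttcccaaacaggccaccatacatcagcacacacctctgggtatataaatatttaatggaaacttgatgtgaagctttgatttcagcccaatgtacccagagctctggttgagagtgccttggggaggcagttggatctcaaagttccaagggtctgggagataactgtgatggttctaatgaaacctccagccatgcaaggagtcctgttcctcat
In the order shown they lie at chr17:34670285-34670584 (plus strand), chr6:29396325-29396624 (plus strand), chr15:79505192-79505491 (minus strand), chr2:36105359-36105658 (minus strand), chr6:103510626-103510925 (plus strand), chr1:88226770-88227069 (plus strand).
The motif searched was CG, which reads the same on both strands. Kcnj4 held 41 CG dinucleotides, Ccdc136 held 21, Lhx6 16, Chl1 13, Tnxb 5 and Mroh2a 0. Of the 32851 promoter windows in the RefSeq table, 94.6% held at least 1 CG and the median was 7. The windows with the highest promoter H3K27me3 of the 6, Kcnj4 and Lhx6, were above that median, and Tnxb, with 89.0 H3K27me3 signal per kilobase, was below it. These are descriptions of 6 chosen windows. H3K36me3 was averaged over whole gene bodies, not over these windows. The deposited promoter H3K27me3 values imply a longer window than the one shown. The CG counts therefore do not describe the DNA behind either value, and a link between CG content and either mark was not tested.

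Most long genes had values above 0 for both marks. Median gene-body H3K36me3 was 3.97 signal per kilobase in KO and 4.18 in WT, and 237 and 386 of the 9310 genes were at 0. For promoter H3K27me3 the medians were 4.48 (KO) and 3.62 (WT), with 195 and 358 genes at 0. Only 11 genes were at 0 in both KO libraries. Among genes under 20 kb, 34.5% were at 0 for KO H3K36me3, against 2.55% of the long genes. A longer gene body is less likely to be at 0 from background reads alone, so values above 0 do not show the mark itself. Whether the H3K36me3 values lie above background was not tested. Because the scaling of each library is not given, a gain or loss of H3K36me3 shared by all genes could not be read from these medians. The long genes were mostly protein-coding (95.1%), with a median span of 49.97 kb.

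In KO, long genes with high H3K36me3 did not lack promoter H3K27me3. Genes were ranked by each mark and cut into 5 equal groups (quintiles), of which the highest quintile is called high. Of the 1862 genes in the highest quintile of H3K36me3, 431 (23.1%) also lay in the highest quintile of H3K27me3, where a mark that ignores the other gives 20%. In WT the same share was 416 of 1862 (22.3%). Among the top 10% the shares were 13.1% in KO and 12.6% in WT, and among the top 5% they were 6.44% and 4.72%, where the share of all long genes is 10% and 5.01%. The overlap was thus slightly above the share in all long genes at all 3 of these thresholds in KO. In WT it was so at the quintile and at the top 10%, but not at the top 5%, where 22 genes made the count.

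The quintiles of H3K36me3 gave much the same picture. From the lowest to the highest quintile of KO H3K36me3, the median promoter H3K27me3 was 3.74, 4.18, 4.62, 4.95 and 5.17 signal per kilobase. In WT the series was 3.02, 3.51, 3.56, 3.95 and 3.95. With 20 equal bins by WT H3K36me3, the highest bin had a median H3K27me3 of 3.51, under the 3.62 of all long genes. The highest quintile exceeded the lowest by 0.47 on the log2 scale in KO and by 0.39 in WT. Over genes at or above the 25th percentile of positive values in both marks, the difference was 0.16 in KO and 0.08 in WT, and the Spearman correlation of the marks was 0.048 and 0.017. The interquartile range within each quintile was wide. In the highest KO quintile it ran from 2.198 to 13.5, so the step between quintiles was small against the spread of genes within one.

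Read from the other mark, genes with high promoter H3K27me3 were not low in gene-body H3K36me3. In the highest quintile of KO H3K27me3 the median H3K36me3 was 4.41 signal per kilobase, against 3.56 in the lowest quintile. In WT the values were 4.57 and 4.003. Only 258 genes, or 13.9% of the highest H3K27me3 quintile, fell in the lowest H3K36me3 quintile in KO, and 279 (15.0%) did so in WT. H3K36me3 was at 0 in 1.93% of the highest H3K27me3 quintile in KO and in 2.70% of the other genes, and in WT in 2.74% and 4.50%. Values of 0 were rarer in longer genes, at 4.42% over 20 to 50 kb and 0.26% over 100 kb and above in KO. Genes high in H3K27me3 alone were longer, with a median span of 68.4 kb against 52.7 kb for genes high in neither mark. The shares at 0 and in the lowest H3K36me3 quintile were not matched for span. Across the 9310 genes, the Spearman correlation of the 2 marks was 0.108 in KO and 0.064 in WT. These correlations run over genes of 1 library pair, which share depth, base composition and mappability, and they are descriptions.

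**Figure D1:**
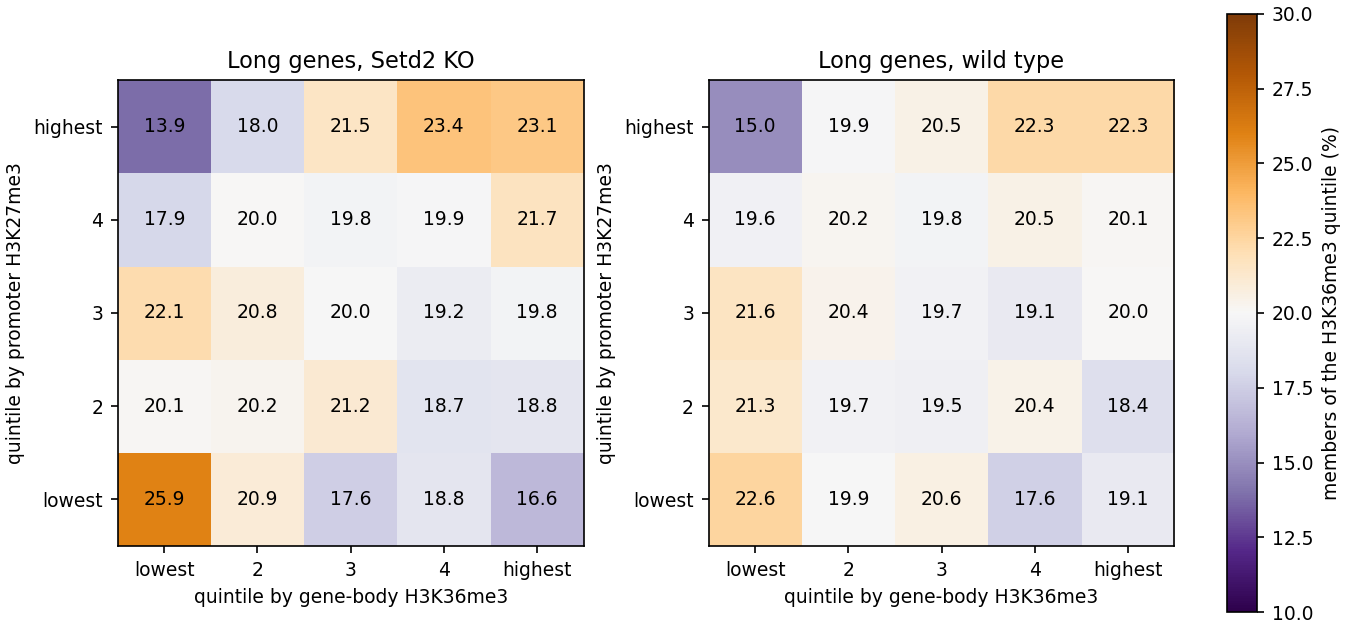
Each cell gives the percent of an H3K36me3 quintile (x axis, by gene-body signal) that falls in an H3K27me3 quintile (y axis, by promoter signal) over 9310 long genes, in Setd2 KO (left) and wild type (right), 1 library per mark and genotype. Exclusion would leave the upper right cell empty. That cell holds 23.1% in KO and 22.3% in wild type, and the emptiest cell in both panels is the upper left, at 13.9% and 15.0%.

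The same table did show 2 marks that avoid each other, at promoters. Of the KO genes in the highest quintile of promoter H3K27ac, 5.74% lay in the highest quintile of H3K27me3, and in WT 5.01% did. With the vitro H3K27ac pair the shares were 6.18% and 3.75%. The Spearman correlation of promoter H3K27me3 with promoter H3K27ac was -0.28 in KO and -0.28 in WT, and -0.34 and -0.42 with the vitro pair. Median H3K27me3 was lower at high H3K27ac. In KO it was 7.15 signal per kilobase in the lowest H3K27ac quintile, 8.03 in the next-to-lowest and 3.08 in the highest. Promoter H3K27me3 against H3K27ac therefore had the shape that H3K27me3 against gene-body H3K36me3 lacked. Both promoter marks were summed over one window and target the same residue, while H3K36me3 was taken over the gene body, so the comparison is between different kinds of pair.

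**Figure D2:**
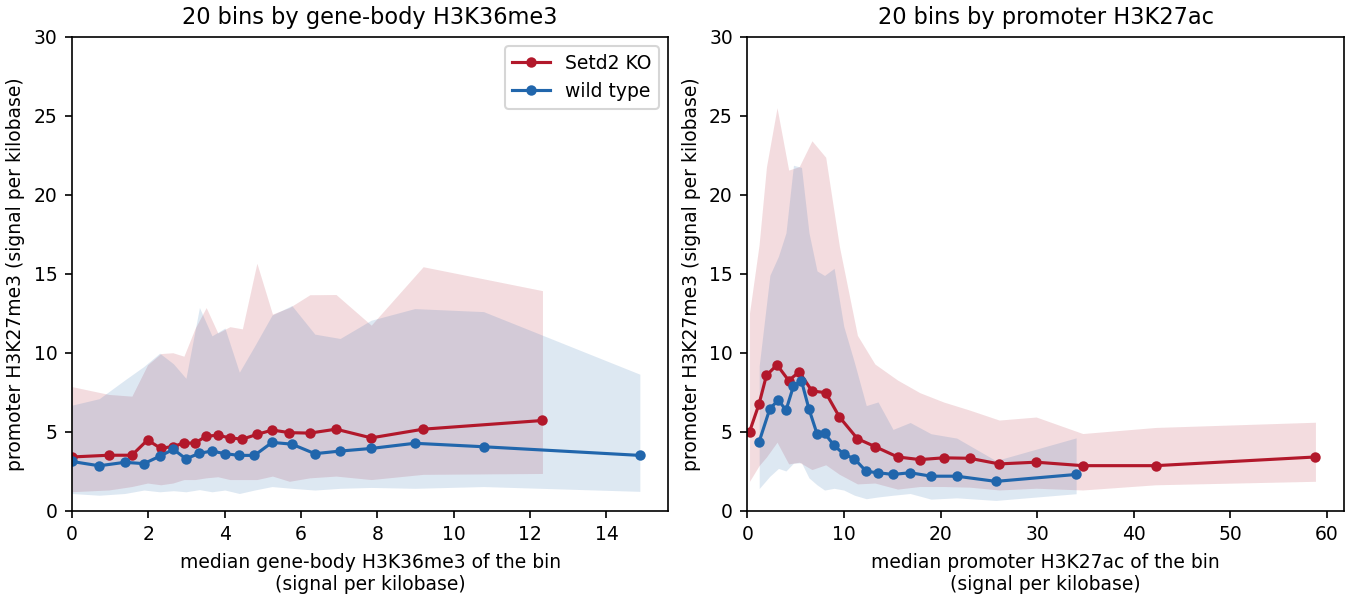
Median promoter H3K27me3 (points and lines) and its interquartile range over genes (shading), in signal per kilobase, over 20 equal bins of long genes ranked by gene-body H3K36me3 (left) or by promoter H3K27ac (right), in Setd2 KO and wild type. Against H3K36me3 the KO median goes from 3.41 in the lowest bin to 5.72 in the highest. Against H3K27ac it reaches 9.24 in bin 4 and lies at 3.41 in the highest.

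Median gene-body H3K36me3 was higher where promoters were high in H3K27ac or in H3K27me3 than where they were high in neither. In KO the 1757 genes with high H3K27ac alone had a median H3K36me3 of 4.63 signal per kilobase, and the 1754 genes with high H3K27me3 alone had 4.34. The 5692 genes high in neither had 3.62. These lie outside the highest quintile of each promoter mark and are not free of the marks. This grouping was chosen after the values were seen. The 107 genes with both promoter marks high had the highest median, 5.89. In WT the order was the same, at 5.21, 4.50, 3.81 and 6.40. Genes with H3K27me3 alone were below those with H3K27ac alone by a log2 difference of -0.09 in KO and -0.21 in WT, and above genes with neither by 0.26 and 0.24. With the vitro H3K27ac pair, the differences from the acetylated genes were -0.08 and -0.18. Over genes of 50 to 100 kb the KO difference had the other sign, at 0.05 (medians of 4.50 against 4.34) and 0.06 with the vitro pair, while in WT it was -0.07 with either.

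**Figure D3:**
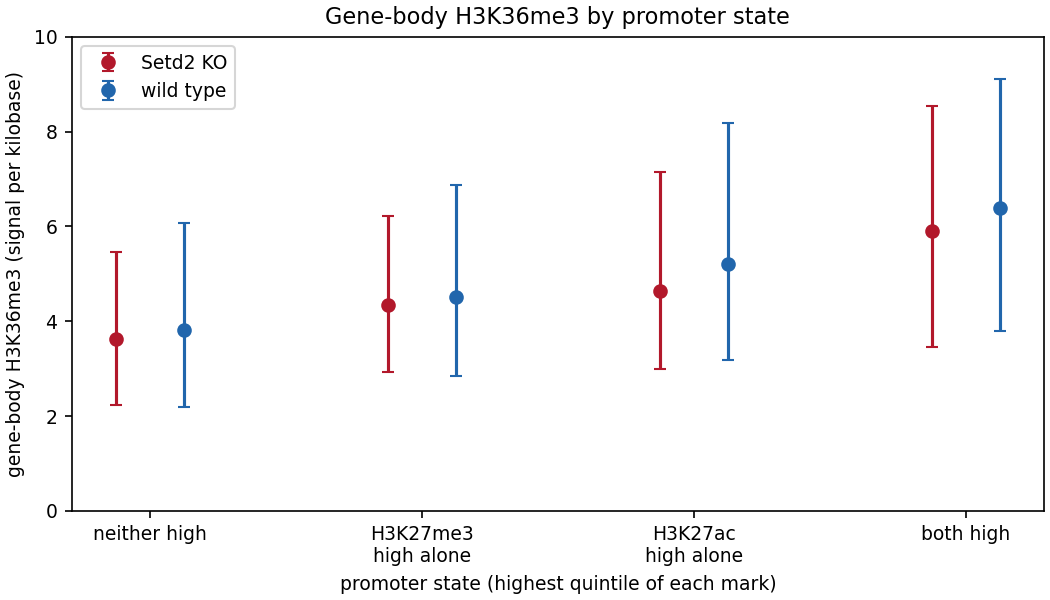
Median gene-body H3K36me3 (points) with the interquartile range over genes (bars), in signal per kilobase, for long genes grouped by whether the promoter is in the highest quintile of H3K27me3, of H3K27ac, of both or of neither, in Setd2 KO and wild type. Genes with H3K27me3 alone (4.34 in KO, 4.50 in wild type) lie between genes with neither mark (3.62, 3.81) and genes with H3K27ac alone (4.63, 5.21) over all spans, and the bars overlap throughout.

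How well the H3K36me3 ranks repeated between libraries bears on how much this pair of marks can show. Between KO and WT, the Spearman correlation over the 9310 genes was 0.28 for gene-body H3K36me3, 0.80 for promoter H3K27me3, 0.81 for promoter H3K27ac and 0.91 for its vitro pair. For H3K36me3 it was 0.22 over the 4661 genes of 20 to 50 kb, 0.32 over the 2368 genes of 50 to 100 kb and 0.48 over the 2281 genes of 100 kb and above. Whether the low value comes from the knockout or from noise in the libraries cannot be told apart with 1 library each. In the longest genes, where the H3K36me3 ranks repeated best, the marks still did not avoid each other. The share of high-H3K36me3 genes with high H3K27me3, ranked within that band, was 26.3% in KO and 29.3% in WT, and the Spearman correlations were 0.136 and 0.086. H3K36me3 also followed H3K27ac only loosely, with correlations of 0.19 in KO and 0.25 in WT.

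Genes high in both marks made up 431 of the 9310 in KO (4.63%) and 416 in WT (4.47%). Of these, 141 were shared, which is 32.7% of the KO set and 33.9% of the WT set. For single marks, 38.5% of the highest H3K36me3 quintile and 81.8% of the KO highest H3K27me3 quintile were shared with the same quintile in WT. Of the KO genes high in both, 40.6% were high in H3K36me3 in WT and 82.6% in H3K27me3, near those single-mark shares. Genes outside the shared set thus mostly differed in their H3K36me3 rank, which was not particular to genes high in both marks. Of the 416 WT genes, 202 were in KO high in H3K27me3 alone and 31 high in H3K36me3 alone. Of the 431 KO genes, 215 came from the WT genes high in H3K27me3 alone and 34 from those high in H3K36me3 alone.

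The KO genes high in both marks had less promoter acetylation than all long genes and more than the genes high in H3K27me3 alone. Their median promoter H3K27ac was 8.98 signal per kilobase, against 20.9 for the 1431 genes high in H3K36me3 alone, 5.70 for the 1430 high in H3K27me3 alone and 12.4 for all long genes. Their median span of 39.3 kb was near that of the genes high in H3K36me3 alone (35.96 kb) and under that of the genes high in H3K27me3 alone (68.4 kb). Transcription factors, as the table annotates them, were 30 of the 431 (6.96%), against 6.43% of all long genes. Whether both marks lie on the same chromosomes, alleles or cells cannot be read from separate libraries of a cell population.

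The 10 genes that ranked highest in both KO marks at once were Caskin1, Tnxb, Tspoap1, Ccdc136, Mast1, Kcnj4, Ttbk1, Rtn4r, Fam222a and Flnc. Several act in neurons. Caskin1 encodes a synaptic scaffold that binds CASK, Kcnj4 an inwardly rectifying potassium channel, Ttbk1 a tau kinase and Rtn4r the receptor for the myelin inhibitor Nogo. Caskin1 (chr17, 20.1 kb) had gene-body H3K36me3 of 15.7 signal per kilobase in KO and 3.13 in WT, and promoter H3K27me3 of 148 and 70.4. Kcnj4 (chr15:79483714-79505241, minus strand) had H3K36me3 of 12.6 and 11.5, and H3K27me3 of 266 and 130.2. Tnxb, which encodes the extracellular matrix protein tenascin-X, had H3K36me3 of 22.2 and 11.4, and H3K27me3 of 89.0 and 77.5. Flnc, which encodes the actin crosslinker filamin C, had H3K36me3 of 12.0 and 4.02, and H3K27me3 of 90.4 and 46.8. All 10 were higher in KO than in WT for both marks. They were chosen by their KO values, so that direction is built into the choice. In WT all 10 were in the highest quintile of H3K27me3 and 3 of 10 in the highest quintile of H3K36me3.

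**Figure D4:**
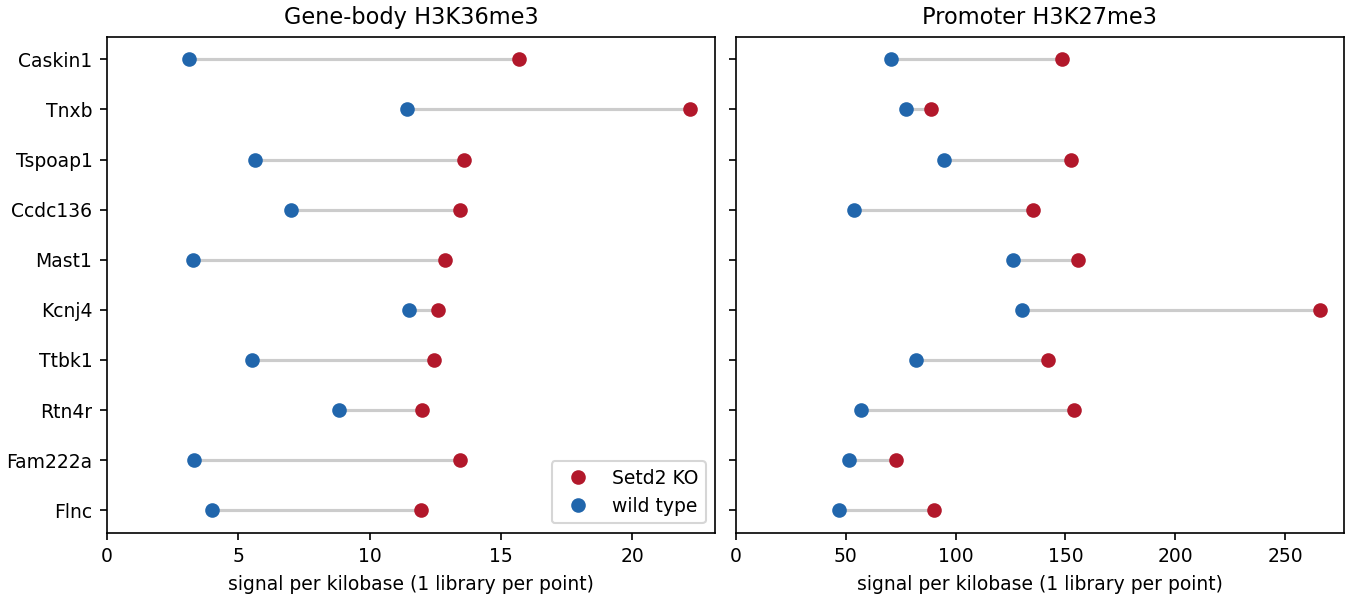
Gene-body H3K36me3 (left) and promoter H3K27me3 (right), in signal per kilobase, for the 10 long genes highest in both marks in Setd2 KO, with 1 library per point and grey lines joining KO and wild type. The KO points run from 12.0 to 22.2 for H3K36me3 and from 73.1 to 266 for H3K27me3, and all lie to the right of wild type, as the choice by KO values favours.

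Fold differences between genotypes gave the background for such genes. With a pseudocount, KO H3K36me3 was at least 2-fold above WT in 7.99% of long genes and at least 2-fold below in 9.66%. For promoter H3K27me3 the shares were 15.3% and 5.77%. Across the 9310 genes the KO over WT ratio of H3K36me3 and that of H3K27me3 had a Spearman correlation of 0.007. H3K36me3 itself had a Spearman correlation of only 0.28 between KO and WT, and noise in its ratio would also give a low value. Whether genes with less H3K36me3 in KO had more promoter H3K27me3 therefore cannot be told from this correlation.

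Of the 10 genes highest in KO H3K27me3, 8 were above the median of all long genes for KO H3K36me3. In its highest quintile were 4 of the 10, a small set, against 20% of all long genes. Srcin1 (chr11:97509340-97576186, minus strand), which encodes a Src-kinase regulator of neurons and epithelia, had promoter H3K27me3 of 439.7 signal per kilobase in KO and 194 in WT, and H3K36me3 of 5.25 and 7.93. Vax2, a homeobox gene of the ventral eye, had H3K27me3 of 341 and 172 and H3K36me3 of 4.10 and 2.75. Lhx6, a LIM-homeobox gene of cortical interneurons, had H3K27me3 of 252 and 136 and H3K36me3 of 5.60 and 20.6. It was high in both marks in WT and high in H3K27me3 alone in KO. Sim2, a bHLH-PAS regulator, was the reverse, with H3K36me3 of 8.75 in KO and 3.92 in WT beside H3K27me3 of 247 and 123. Asic4, Lhx4, Lmx1b, Pax3 and Elfn2 made up the rest with Kcnj4. All 10 were in the highest H3K27me3 quintile of WT too.

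Of the 10 genes with the most KO H3K36me3, 4 had high promoter H3K27me3, against 20% of all long genes. A count over 10 genes is small. Chl1, a neural cell adhesion gene, was highest at 83.8 signal per kilobase in KO and 61.2 in WT, with promoter H3K27me3 of 10.1 and 5.04. Atf3, a stress-induced bZIP factor, had H3K36me3 of 34.5 and 11.5 and H3K27me3 of 67.7 and 13.3, and its promoter H3K27ac was 24.1 and 23.0. Smo, the Hedgehog signal transducer, had H3K36me3 of 30.5 and 32.6 and H3K27me3 of 42.1 and 33.5, and was high in both marks in each genotype. Neat1, a nuclear long noncoding RNA gene, had H3K36me3 of 29.1 and 37.7 with H3K27me3 of only 2.97 and 0.328. Nmur1, Ccl1 and Trim47 were listed at 0 for WT H3K36me3, against 57.8, 33.9 and 33.9 in KO. Values of this kind over genes of 21.5 to 129 kb rest on 1 library. Sfi1, Mroh2a and Nr4a1 were the others.

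Genes that entered or left the overlap most sharply were chosen as high in both marks in KO or WT and lowest in rank in the other genotype. Choosing by lowest rank favours genes at 0, so the H3K36me3 values of 0 below follow from the choice. Adora3, Ccl1, Clec18a, Fam241b, Gjc1 and Ovol2 were high in both marks in KO and had the lowest ranks in WT, where all 6 were at 0 for H3K36me3. Calhm2, Ccdc106, Kash5, Cxxc5, Dlx1as and Tlcd3b were the reverse, with all 6 at 0 in KO. Ovol2, an epithelial zinc-finger repressor, had H3K36me3 of 7.51 in KO and 0 in WT, while its H3K27me3 was 112 and 83.6. Ccdc106 had H3K36me3 of 0 in KO and 11.9 in WT, with H3K27me3 of 151 and 128. Of the first 6, 4 were already high in H3K27me3 in WT, and all of the second 6 were still high in H3K27me3 in KO.

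Developmental regulators were the list with the largest share of genes high in promoter H3K27me3. The list was chosen for Polycomb coverage, with earlier results of these data known, so its high share is built into the choice. Of 60 long genes on a list of developmental transcription factors that Polycomb commonly covers, 47 were in the highest quintile of KO H3K27me3, against 20% of all long genes. Their median H3K36me3 was 4.57 signal per kilobase in KO and 3.52 in WT, with 3.97 and 4.18 over all long genes. Of the 60, 7 (11.7%) were in the highest quintile of H3K36me3 in KO and 7 in WT, under the 20% of all long genes, although the KO median was above that of all long genes. Of the 7 in KO, 6 were high in both marks: Gata4, Tbx4, Sim2, Onecut2, Twist2 and Alx4. In WT 6 were also high in both, among them Gata4, Lmx1b, Onecut1, Onecut2 and Wt1. Gata4, an endoderm and heart regulator, had H3K36me3 of 8.28 in KO and 7.52 in WT while its promoter H3K27me3 was 170.2 and 37.1 and its H3K27ac 3.29 and 19.1. Twist2, a bHLH regulator of mesenchyme, had H3K36me3 of 13.7 in KO and 3.22 in WT and H3K27me3 of 16.7 and 38.4. Onecut2, a CUT-homeobox factor of liver and pancreas, had H3K36me3 of 10.8 and 9.10 and H3K27me3 of 89.5 and 90.2, beside promoter H3K27ac of 43.3 and 43.4.

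Axon guidance genes overlapped most among the neural lists. Of 34, 19 were high in KO H3K27me3, 7 high in H3K36me3, and 6 high in both (17.6%, against 4.63% of all long genes). In WT the counts were 21, 10 and 6 (17.6%, against 4.47%). The 6 in KO were Sema3f, Slit1, Ntn1, Unc5a, Epha8 and Ephb2, which encode guidance ligands and their receptors. Slit1 had H3K36me3 of 8.15 and 7.77 in KO and WT, and H3K27me3 of 85.5 and 58.6. Ephb2 had 8.90 and 3.72, and 31.7 and 54.9. Neuronal adhesion and channel genes gave 15 of 36 high in H3K27me3 and 2 high in both, among them Kcnh1. Cadherins and protocadherins gave 20 of 34 and 1, the giant cadherin Dchs1, with H3K36me3 of 9.20 and 3.40 and H3K27me3 of 53.5 and 50.4. The median KO H3K36me3 of these last lists was 3.34 and 3.27, under the 3.97 of all long genes, and that of the axon guidance genes was 4.22.

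Lists of broadly expressed genes held few genes high in promoter H3K27me3, and their share high in KO H3K36me3 was under the 20% of all long genes. None of 53 RNA processing genes and none of 52 DNA replication and repair genes was in the highest quintile of KO H3K27me3. Their median KO H3K36me3 was 3.08 and 3.43 signal per kilobase, under the 3.97 of all long genes, and in WT 3.81 and 3.69, under 4.18. Their median KO promoter H3K27ac was 21.8 and 18.5, against 12.4 overall. The 57 ubiquitin ligase and deubiquitinase genes had 2 genes high in H3K27me3, Hectd2 and Usp37, and a median H3K36me3 of 3.38 in KO and 3.76 in WT. Among 63 chromatin and coactivator genes, Smarca2 and Chd7 were high in H3K27me3, 11 were high in H3K36me3, and 1 was high in both, the SWI/SNF ATPase gene Smarca2, with H3K36me3 of 7.17 and 6.57 and H3K27me3 of 69.6 and 38.0. Of 49 MAPK, mTOR and PI3K signalling genes, 6 (12.2%) were high in H3K27me3, 9 (18.4%) in H3K36me3 and none in both, in KO as in WT. Prpf8, the core spliceosome gene, had H3K36me3 of 14.4 in KO and 23.8 in WT and H3K27me3 of 9.84 and 3.73. In KO the median H3K36me3 of each of these 5 lists, 4.30 for the chromatin genes included, was under the 4.57 of the developmental transcription factors, and in WT each was above their 3.52.

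**Figure D5:**
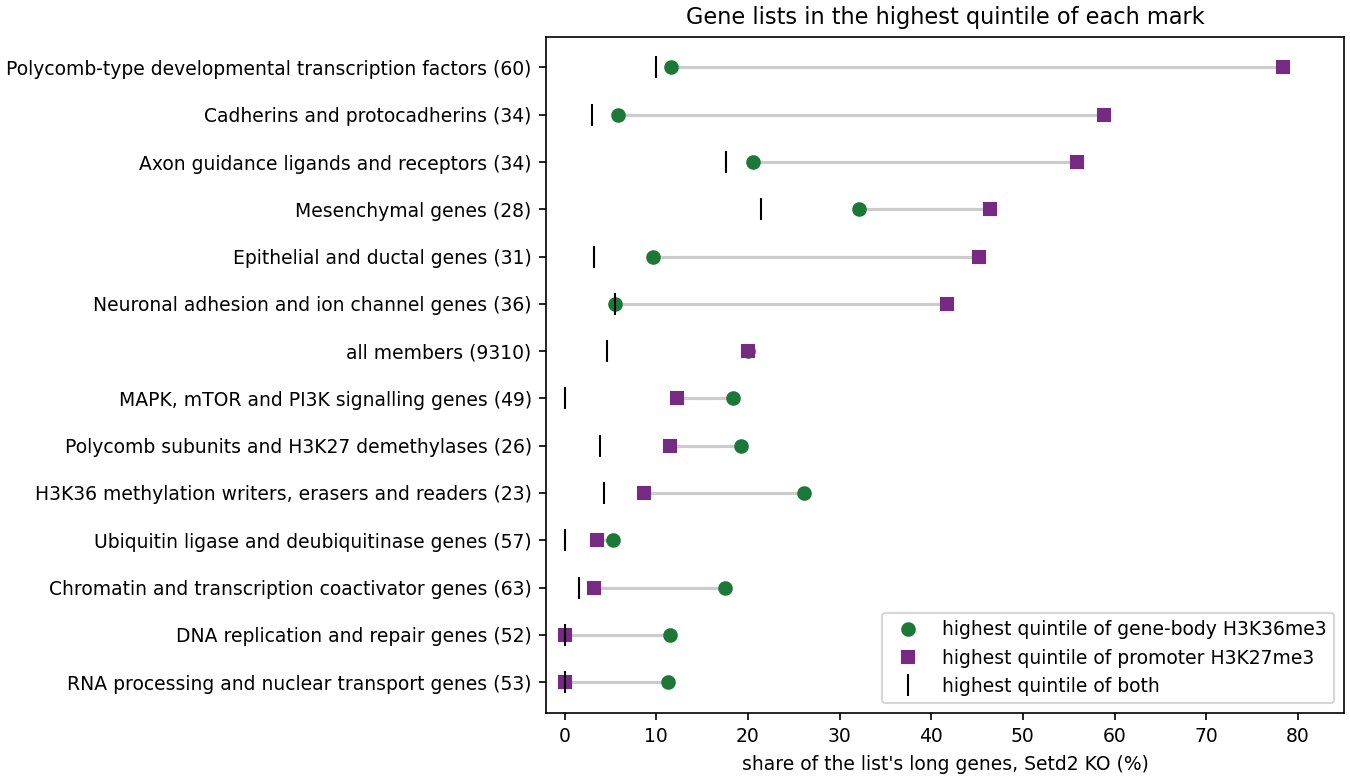
Share of each list's long genes (number in brackets) in the highest quintile of gene-body H3K36me3 (circles), of promoter H3K27me3 (squares) and of both (bars) in Setd2 KO. Squares run from 0% for RNA processing and DNA repair to 78.3% for developmental transcription factors, a list chosen for Polycomb coverage. Circles stay between 5.26% and 32.1% with no matching order.

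Epithelial and mesenchymal genes bear on the state of the tumour cells. Of 31 epithelial and ductal genes, 14 were high in KO H3K27me3 and 10 in WT, and 11 had at least 2-fold more H3K27me3 in KO with none at least 2-fold less, against 15.3% and 5.77% of all long genes. Their median KO over WT difference was 0.86 on the log2 scale for H3K27me3, beside 0.20 for all long genes, and -0.12 for H3K36me3, beside -0.05. High in both marks were 1 gene in KO (3.23%, against 4.63% of all long genes), the tight-junction gene Cgn, and 5 in WT (16.1%, against 4.47%), among them Cdh1, Grhl3, Onecut1 and St14. These 4 were high in H3K27me3 alone in KO, with less H3K36me3 and more H3K27me3 than in WT. Onecut1, a factor of pancreatic ducts, had H3K36me3 of 0.102 in KO and 11.8 in WT and H3K27me3 of 153 and 57.2. Cdh1, which encodes E-cadherin, had H3K36me3 of 2.67 and 8.40, H3K27me3 of 38.5 and 20.4, and promoter H3K27ac of 23.3 and 18.7. The 4 were named after their values were seen and were chosen for high H3K36me3 in WT, which favours a lower value in KO. Esrp1, an epithelial splicing regulator, had H3K27me3 of 119 and 62.8 with little difference in H3K36me3, at 4.19 and 4.79. Itgb4, the hemidesmosome integrin, had H3K36me3 of 10.7 and 17.7 and H3K27me3 of 10.7 and 7.35.

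Of 28 mesenchymal genes, 13 were high in H3K27me3 in KO and 13 in WT, and 9 were high in H3K36me3 in each. High in both were 6 in KO (21.4%) and 5 in WT (17.9%). Of all long genes, 20% were high in each single mark, and 4.63% in KO and 4.47% in WT in both. The KO genes were Twist2, Itga5, Col5a1, Prrx1, Ltbp2 and Tns1, and the WT genes Loxl1, Tgfbi, Col5a1, Fstl1 and Tns1. Prrx1, a homeobox gene of mesenchyme, had H3K36me3 of 9.03 in KO and 2.09 in WT and H3K27me3 of 70.1 and 66.9. Tns1, a focal adhesion gene, had 10.1 and 11.4, and 51.9 and 27.7. Fn1, which encodes fibronectin, had the highest H3K36me3 of the list at 17.1 and 9.85, with H3K27me3 of 8.69 and 11.5.

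Few genes for the proteins that write and read these marks were high in promoter H3K27me3. Setd2 itself (chr9, 86.0 kb) had H3K36me3 of 2.32 in KO and 2.38 in WT and H3K27me3 of 6.05 and 2.41. Ezh2 had H3K36me3 of 1.78 and 0.832 and H3K27me3 of 2.42 and 2.03. Suz12, a further subunit of the Polycomb complex, had H3K36me3 of 4.48 and 4.32 and H3K27me3 of 3.08 and 0.548. Of 23 genes for H3K36 methylation enzymes and readers, Phf19 and Dnmt3b (8.70%) were high in KO H3K27me3 and 6 (26.1%) in H3K36me3. Of 26 Polycomb and H3K27 demethylase genes, Phf19, Phc2 and Bcor (11.5%) were high in H3K27me3 and 5 (19.2%) in H3K36me3. Each compares with 20% of all long genes. Median H3K27me3 was 2.64 in KO and 2.41 in WT over the 23 genes, and 3.68 and 3.75 over the 26. Over all long genes it was 4.48 and 3.62. Phf19, which encodes a Polycomb-like protein that binds H3K36me3 and is on both lists, was high in both marks in each genotype, with H3K36me3 of 12.1 and 12.1 and H3K27me3 of 18.1 and 31.4. Dnmt3b, whose PWWP domain reads H3K36 methylation, had H3K36me3 of 2.31 and 7.33 and H3K27me3 of 24.8 and 18.1.

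Markers of other cell types that tumour tissue could hold were examined because the source of the cells is described in more than one way. Median KO promoter H3K27ac was 3.56 signal per kilobase over 12 leukocyte, 4.85 over 12 endothelial, 3.998 over 2 acinar and 11.1 over 9 fibroblast markers, against 12.4 over all long genes. In the vitro KO library the medians were 2.63, 2.26, 1.74 and 3.83 in the same order, against 11.6 over all long genes. The fibroblast markers were thus near all long genes in the plain KO library and under them in the vitro one. Endothelial markers had 7 of 12 genes high in H3K27me3 in KO and 6 in WT, against 20% of all long genes. High in both marks were 3 of 12 endothelial markers in KO (Pecam1, Kdr and Flt1) and 1 in WT (Flt1), against 4.63% and 4.47% of all long genes. Of the leukocyte markers 0 of 12 were high in both in KO and 2 in WT (Csf1r and Cd4), of the fibroblast markers 0 of 9 and 1 (Pdgfrb), and of the acinar markers none in either. The part of other cells in the overlap was not tested.

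Both-high genes were unevenly spread over chromosomes, as was H3K36me3. They were 58 of 605 long genes on chromosome 11 (9.59%), 26 of 336 on chromosome 15 (7.74%) and none of 329 on chromosome X. Median KO H3K36me3 was 5.34 signal per kilobase on chromosome 11, 4.87 on chromosome 15 and 2.02 on chromosome X. Median KO H3K27me3 was 4.51, 5.77 and 5.17. KO and WT also differed by chromosome in H3K36me3, with 4.22 and 3.56 on chromosome 1 but 3.69 and 4.57 on chromosome 3. When the quintiles were drawn within each chromosome, 22.5% of high-H3K36me3 genes in KO and 21.3% in WT were high in H3K27me3. Within single chromosomes the KO share ran from 12.5% on chromosome 19 to 30.5% on chromosome 18.

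At the edge of the span rule, Slc45a3 (20.003 kb) and Chil3 (20.011 kb) were the shortest named members. Slc45a3 had H3K36me3 of 3.59 in KO and 7.54 in WT and H3K27me3 of 92.2 and 48.1, and Chil3 had 12.1 and 8.11, and 4.40 and 1.54. Just outside, Ms4a4b and 4933439K11Rik spanned 19.997 kb each, with KO H3K36me3 of 6.33 and 11.2 and KO H3K27me3 of 1.54 and 7.26.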

How the data were processed

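CUT&Tag signal was analysed from 1 table of 25450 rows and 8 libraries. The authors deposited mean coverage per base (signal) per promoter or gene body. The submitters' processing notes name build mm10, MACS2 2.2.7.1, Bowtie2 2.4.2 and HOMER, without their order. The scaling, duplicate handling and control libraries are not stated there, and depth is unknown. Promoter values were whole hundredths when multiplied by 6000, which implies a window of that many bases. Signal was multiplied by 1000 to give signal per kilobase. Members had a span of at least 20 kb from the deposited coordinates; 9309 of 9310 matched a RefSeq locus of the same symbol, and 99.9% of these overlapped it. High means the top 20% of members by rank within a library. Ratios used the 25th percentile of positive values, averaged over both genotypes, as pseudocount (2.63 for H3K36me3, 1.51 for H3K27me3). Sharing was counted, with no test, since each group is 1 library and genes are not replicates; the counting was tested on simulated data with planted orders. The members, the gene lists and the choice of marks were made with earlier results of these data known. Named genes were the 10 highest by each KO mark and by the lower of both ranks, 6 genes entering and 6 leaving the overlap, up to 4 per list, Setd2, Ezh2 and Suz12, and the genes nearest the span threshold; genes counted in small groups were named after their values were seen, and some counted genes are not reported here by name. A check of promoter base composition by class is void, because only 71.7% of the members matched a promoter sequence within 3 kb of their start. Analyses used Python 3.11.15 with numpy 2.4.6, pandas 2.3.3, scipy 1.17.1 and matplotlib 3.10.9.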

Additional observations from a re-analysis of the deposited data

How the results depend on the processing

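No paired analysis was possible because each group holds 1 library. The share of high-H3K36me3 genes that were high in H3K27me3 stayed above the share in the genes ranked under all 15 alternatives in each genotype, 3 of them chosen after seeing the data. The top 5% was not among the 15, and in WT its share of 4.72% was under the 5.01% of all long genes. Under 10 of the 15 the share counted as close to 23.1% in KO and 22.3% in WT, meaning inside a 95% binomial interval over genes. In WT the share was 20.8% over genes of at least 10 kb and 20.6% with no span threshold. Both counted as close, though they lie near the 20% in the genes ranked. In KO it was 20.5% over genes at or above the 25th percentile of positive values in both marks, 28.8% above and 27.4% below the median promoter H3K27ac, 13.1% for the top 10% and 37.4% for the top tertile. In WT it was 24.7% over genes of at least 50 kb, 25.1% above and 27.7% below the median H3K27ac, 12.6% for the top 10% and 35.7% for the top tertile. The Spearman correlation stayed positive throughout, from 0.048 to 0.182 in KO and from 0.017 to 0.152 in WT over 12 alternatives each, and so did the log2 contrast of the outer quintiles, from 0.16 to 1.07 and from 0.08 to 0.92 over 14. The shared both-high genes were 141, or 24 for the top 10%, 473 for the top tertile and 119 with the WT cut values in both genotypes. The share of KO both-high genes with high H3K27ac was 9.98%, and 6.56% for the top 10%. The low agreement of H3K36me3 between libraries, the unknown depth and the unknown scaling limit what a lack of exclusion can show.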
